A study of Mus musculus with 15 samples.

Results

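Complex I of the respiratory chain carries 7 subunits that the mitochondrial genome itself encodes, mt-Nd1, mt-Nd2, mt-Nd3, mt-Nd4l, mt-Nd4, mt-Nd5 and mt-Nd6, and their transcripts are described here in 5 sorted populations of mouse T cells. The members were taken by symbol from 4 deposited tables of differentially expressed genes, and these 7 genes are among 4567 listed genes in all. The genes in the tables were selected on fold change and adjusted p: in every row of a table the adjusted p lies under 0.05 and the log2 fold change lies beyond 2 in either direction. All 7 subunits have a row where Flica-positive cells are set against Flica-negative ones, and 5 of them have one for Flica-positive against control CD8 cells, mt-Nd5 and mt-Nd6 being the exceptions. None is listed for either comparison of Flica-negative cells with control cells. Values in those 4 comparisons are therefore given as a description: how many subunits lay past the edgeR threshold is stated beside the share of all listed genes, without p-values of single genes. Tests with p-values are given for the comparisons of CD4 with CD8 cells, which no table covers.

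RNA was measured in 15 libraries, 3 for each population. T cells of C57Bl6 donors were transferred, together with bone marrow cells, into lethally irradiated allogeneic Balb/C recipients to induce acute graft-versus-host disease (aGvHD), and on day 7 Flica-negative CD4 cells, Flica-negative CD8 cells and Flica-positive CD8 cells were sorted from the spleen. Control CD4 and CD8 cells came from C57Bl6 mice on day 0 without any treatment. The paper describes its controls as sorted Flica-negative T cells, used because syngeneic recipients gave too few donor T cells. The Flica reagent is fluorescent and attaches to caspase-1 once this inflammasome protease is active. Splenocytes of several mice with aGvHD were pooled before sorting, so a day 7 library is in general not a single mouse. The paper gives fewer control mice per sort, so a control library can be a single mouse. The spleen of an irradiated recipient can still hold cells of the host. The age of the mice is not in the labels. Flica-positive CD4 cells were not analysed here.

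Complex I takes electrons from NADH, passes them to ubiquinone and pumps protons across the inner mitochondrial membrane. The mitochondrially encoded subunits build the core of its membrane arm, in which mt-Nd2, mt-Nd4 and mt-Nd5 are the large antiporter-like proton channels, mt-Nd1 lies at the ubiquinone site, and mt-Nd3, mt-Nd4l and mt-Nd6 are small subunits that join these parts. The mitochondrial genome is copied into long precursor transcripts from both strands, which are then cut into single messengers. Activated T cells are known to change their mitochondrial mass and respiration as they divide.

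In the GRCm38 assembly with GENCODE M21 annotation, 6 of the subunit genes lie on the plus strand of the mitochondrial chromosome: mt-Nd1 at chrM:2751-3707, mt-Nd2 at chrM:3914-4951, mt-Nd3 at chrM:9459-9806, mt-Nd4l at chrM:9877-10173, mt-Nd4 at chrM:10167-11544 and mt-Nd5 at chrM:11742-13565. The gene mt-Nd6, at chrM:13552-14070, is on the minus strand, alone among the 13 mitochondrial protein-coding genes. Each gene is annotated as 1 exon without introns. The coding strand of mt-Nd6 held 28.1% G and 5.97% C, whereas in the other 6 subunits G made up 8.00% to 11.6% and C 22.1% to 30.0%.

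Neighbouring members overlap, which matters for how reads are assigned, and the ends concerned are shown here 5′ to 3′ with the shared bases in capitals. The last 14 bases of mt-Nd5 and mt-Nd6 cover the same positions on opposite strands and are reverse complements of each other, and the last 7 bases of mt-Nd4l are the first 7 of mt-Nd4.
mt-Nd5, chrM:13506-13565, plus strand: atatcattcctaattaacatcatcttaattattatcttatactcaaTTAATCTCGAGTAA
mt-Nd6, chrM:13552-13611, minus strand: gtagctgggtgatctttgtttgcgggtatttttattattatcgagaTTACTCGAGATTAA
mt-Nd4l, chrM:10114-10173, plus strand: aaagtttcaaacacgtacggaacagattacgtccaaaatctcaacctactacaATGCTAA
mt-Nd4, chrM:10167-10226, plus strand: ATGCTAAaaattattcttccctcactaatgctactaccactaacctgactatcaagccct

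Copies of mitochondrial DNA inserted in the nuclear genome can take up reads of these genes, and here they differed among the members. A cluster on chromosome 1 holds Gm28438 (chr1:24612775-24613119), Gm10222 (chr1:24612407-24612700) and Gm28439 (chr1:24611535-24612410), which matched mt-Nd3 over 345 bases with 1 mismatch, mt-Nd4l over 294 bases without a mismatch and mt-Nd4 over 876 bases without a mismatch. All 3 copies are themselves listed genes. The best copies of mt-Nd2, mt-Nd5 and mt-Nd6 are not listed and are more diverged, with identities of 96.7% over 510 bases for Gm13339, 95.2% over 954 bases for Gm4076 and 93.6% over 519 bases for Gm11408. For mt-Nd1 no annotated transcript matched at 85% identity or more over at least 100 bases. A stretch of 60 bases at the start of 3 of these matches shows how alike a gene and its copy can be, with the bases that differ in capitals.
mt-Nd3, chrM:9459-9518, plus strand: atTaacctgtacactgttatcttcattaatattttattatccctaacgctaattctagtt
Gm28438, chr1:24613060-24613119, minus strand: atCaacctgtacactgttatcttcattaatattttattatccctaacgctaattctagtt
mt-Nd5, chrM:12447-12506, plus strand: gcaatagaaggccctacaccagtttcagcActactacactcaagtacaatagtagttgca
Gm4076, chr13:85127455-85127514, minus strand: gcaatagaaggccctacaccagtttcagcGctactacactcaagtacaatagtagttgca
mt-Nd6, chrM:14011-14070, minus strand: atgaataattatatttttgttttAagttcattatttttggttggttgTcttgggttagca
Gm11408, chr4:80003855-80003914, minus strand: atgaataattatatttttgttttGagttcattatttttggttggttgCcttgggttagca

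Counted from 1 at the 5′ end of the mitochondrial gene, these differences are T3C in mt-Nd3, A735G in mt-Nd5, and A24G and T48C in mt-Nd6, with the mitochondrial base first. In the deposited counts Gm28438 held 1.00 to 1.02 times the count of mt-Nd3 in the same library and Gm10222 held 1.00 to 1.01 times the count of mt-Nd4l, over all 15 libraries. The Gm28439 count was 0.544 to 0.580 of the mt-Nd4 count, for a copy that covers 0.636 of that gene. Reads of these 3 subunits and of their nuclear copies can therefore not be told apart, while mt-Nd1, mt-Nd2, mt-Nd5 and mt-Nd6 have no listed copy.

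A few values of the whole series bear on every result. The listed genes took up between 2143579 and 3184674 counts per library in 4 populations and between 7310375 and 11046043 in the Flica-positive libraries. These counts include the listed nuclear copies of mitochondrial genes, some of which nearly repeat the count of the mitochondrial gene, as given above. The total count of a library is not in tables of selected genes, so the depth is not known. The 7 subunits made up 5.99% to 7.60% of the listed counts in control libraries, 3.01% to 3.41% in Flica-negative libraries and 8.48% to 9.63% in Flica-positive libraries. Normalized counts below are counts divided by the authors' size factors. In bulk samples fewer cells of a type and less RNA per cell cannot be told apart. The sorted lineage was checked with Cd8a, the only one of 10 T cell markers with a row, which had 9348 to 21642 normalized counts in CD8 libraries and 4.41 to 117 in CD4 libraries. The Cd4 gene has no row, so the CD4 label was checked only through this low Cd8a level.

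In control cells the large subunits gave the most counts. Transcripts of mt-Nd1 had normalized counts of 35094, 33131 and 41347 in the CD4 control libraries and 45680, 40698 and 39367 in the CD8 control libraries. The values of mt-Nd4, the antiporter-like subunit at the middle of the membrane arm, were 40077, 40754 and 55254 in CD4 and 51330, 48148 and 45288 in CD8 control libraries. In both genes the CD4 and CD8 control libraries overlapped. The mt-Nd2 counts were 20200, 17808 and 23686 in CD4 control cells and 27187, 24409 and 23880 in CD8 control cells, and this was the only subunit for which the CD4 and CD8 control libraries did not overlap. The distal proton channel mt-Nd5 had 32480, 31288 and 38770 counts in CD4 and 42575, 39135 and 35728 in CD8 control libraries. Its neighbour mt-Nd6 had 10197, 9228 and 10549 in CD4 and 12682, 12084 and 9702 in CD8 control libraries. The smallest mean counts belonged to mt-Nd4l, with 7154 to 9309 in CD4 and 9080 to 10035 in CD8 control libraries, and to mt-Nd3, with 3897 to 5022 and 4028 to 5894.

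Flica-negative cells from mice with aGvHD had lower levels of every subunit than control cells, and CD4 and CD8 cells were close to each other. In Flica-negative CD8 libraries mt-Nd1 had 22431, 20965 and 21953 normalized counts, and in Flica-negative CD4 libraries 19652, 22822 and 24534. Counts of mt-Nd2 were 9738, 9014 and 8444 in CD8 and 7996, 9708 and 8259 in CD4 cells. For mt-Nd5 they were 23203, 22038 and 21081 in CD8 and 21498, 21896 and 19629 in CD4 cells. All values of these 3 genes in Flica-negative libraries lay below all values of the control libraries of the same lineage. The mt-Nd6 counts were 7193, 6572 and 7306 in CD8 and 6733, 6446 and 6318 in CD4 cells, again below every control library. The remaining subunits spanned 20142 to 24005 for mt-Nd4, 3618 to 4221 for mt-Nd4l and 2272 to 2794 for mt-Nd3 over the 6 Flica-negative libraries.

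Flica-positive CD8 cells had the highest counts of each subunit. Their mt-Nd1 counts were 419486, 329051 and 261353, those of mt-Nd2 157365, 131427 and 87258, and those of mt-Nd4 369916, 325986 and 217543. In mt-Nd4l, counts of 62689, 53756 and 35110 were found, and in mt-Nd3 53901, 46982 and 18068. Replicate 3 was the lowest library for these 5 genes, most of all for mt-Nd3. The mt-Nd5 counts were 137748, 99828 and 92674 and the mt-Nd6 counts 45505, 29758 and 31867, so for mt-Nd6 replicate 2 was the lowest. On the authors' size factors no Flica-positive library overlapped with any other library in any of the 7 genes. The members were listed through comparisons of Flica-positive libraries, so nothing is read from this separation. Values of mt-Nd5 and mt-Nd6 against control cells changed with the scaling, as given below. Summed over the subunits, the normalized counts were 1002424 ± 251675 (SD, n = 3) in Flica-positive CD8 cells, 87635 ± 3067 in Flica-negative CD8 cells, 86418 ± 4773 in Flica-negative CD4 cells, 180278 ± 14250 in CD8 control cells and 158984 ± 20874 in CD4 control cells.

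**Figure D1:**
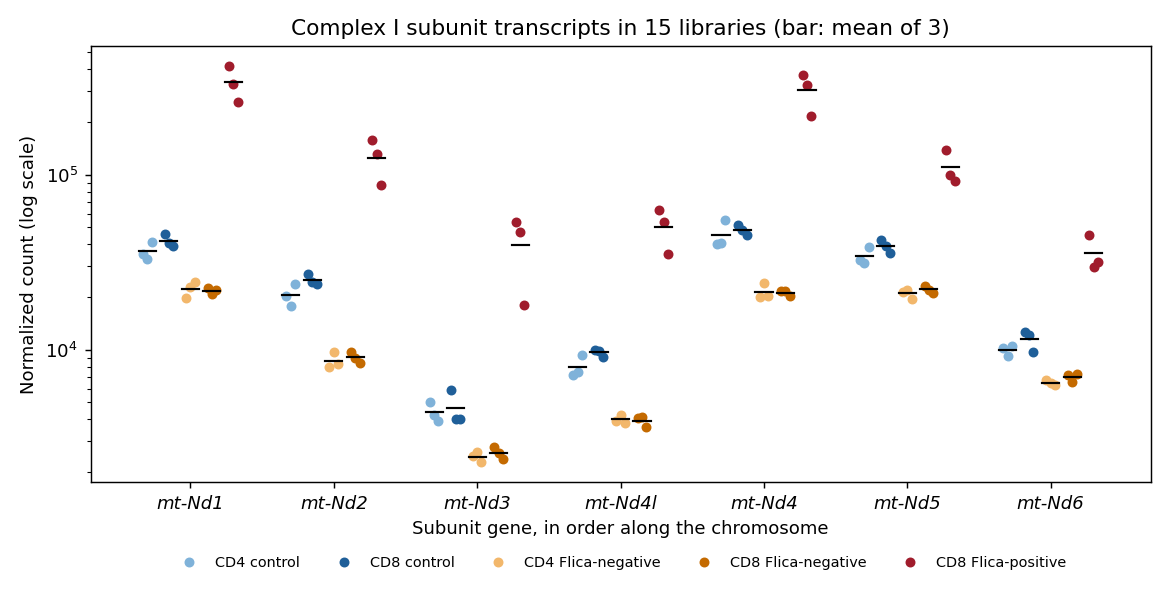
Normalized counts (log axis) of the 7 subunit genes in the 15 libraries, 3 points per population with a bar at their mean. On the authors' size factors the Flica-positive points lie above all others for each gene and the Flica-negative points of each lineage lie below its controls; the distance between Flica-positive and control points is smallest for mt-Nd5 and mt-Nd6 and, for these, its direction changes under other scalings.

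Levels of different genes were compared per kb of gene length. In control cells mt-Nd1 was the highest, with 38165 ± 4483 normalized counts per kb in CD4 and 43798 ± 3478 in CD8 cells, followed by mt-Nd4 with 32919 ± 6222 and 35018 ± 2193 and by mt-Nd4l with 26869 ± 3912 and 32529 ± 1717. Next came mt-Nd2, mt-Nd6 and mt-Nd5, between 18739 and 24237 per kb, whose libraries overlapped, and mt-Nd3 was the lowest at 12594 ± 1661 and 13370 ± 3089 per kb. The neighbours mt-Nd1 and mt-Nd4 overlapped in CD4 but not in CD8 control cells, and mt-Nd4 and mt-Nd4l overlapped in both. Flica-negative cells kept mt-Nd1 at the top and mt-Nd3 at the bottom, but mt-Nd2, at 8338 ± 888 per kb in CD4 and 8734 ± 625 in CD8 cells, now stood below mt-Nd5 and mt-Nd6 without overlap. In Flica-positive cells the bottom of the order was different: mt-Nd5 was the lowest at 60353 ± 13281 per kb and mt-Nd6 the second lowest at 68806 ± 16470, while mt-Nd3 had 113938 ± 54621 and mt-Nd1 351755 ± 82903. The places of mt-Nd3, mt-Nd6 and mt-Nd5 at that end overlapped between libraries.

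The gene pair mt-Nd5 and mt-Nd6 was compared as a ratio of raw counts within each library, which does not depend on any size factor. The mt-Nd6 counts were 0.294 ± 0.021 of those of mt-Nd5 in CD4 control, 0.293 ± 0.019 in CD8 control, 0.310 ± 0.014 in Flica-negative CD4, 0.318 ± 0.025 in Flica-negative CD8 and 0.324 ± 0.024 among the Flica-positive libraries (SD, n = 3 each). Over all 15 libraries this ratio ran from 0.272 to 0.347, and all 5 populations overlapped. The genes lie on opposite strands, and each count varied several-fold between populations. Whether counting used the strand of the reads is not given in the sources used here. This proportion can therefore not be read as messengers of both strands varying together.

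Against mt-Nd1 both genes stood apart in Flica-positive cells. The ratio of mt-Nd5 to mt-Nd1 was 0.328, 0.303 and 0.355 in the 3 Flica-positive libraries and lay between 0.800 and 1.09 in the other 12. That of mt-Nd6 to mt-Nd1 was 0.108, 0.0904 and 0.122 in Flica-positive libraries and between 0.246 and 0.343 elsewhere. The ratio of mt-Nd2 to mt-Nd1 followed another division: it was 0.538 to 0.607 in the 6 control libraries and 0.334 to 0.434 in the 9 libraries of day 7, Flica-positive cells included. For mt-Nd4 to mt-Nd1 the control libraries had 1.12 to 1.34 and the day 7 libraries 0.827 to 1.05. The smaller subunit mt-Nd4l kept 0.161 to 0.205 of the mt-Nd4 count in all libraries. Because 3 libraries against 3 cannot pass a threshold of 0.05 in an exact permutation test, these ratios are given as levels and by whether libraries overlap.

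**Figure D2:**
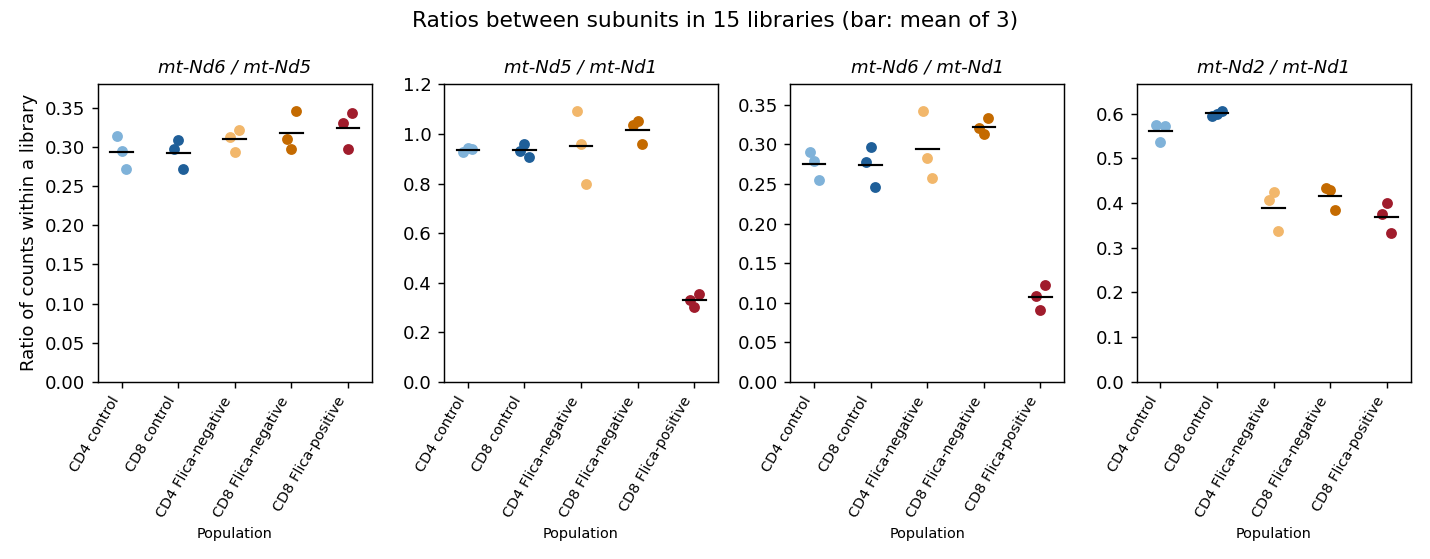
Ratios of raw counts within a library (y axes start at 0) for 4 pairs of subunits in the 5 populations, 3 points each with a bar at the mean. The ratio of mt-Nd6 to mt-Nd5 overlaps in all populations, the ratios of mt-Nd5 and mt-Nd6 to mt-Nd1 are separate and low in Flica-positive CD8 cells, and the ratio of mt-Nd2 to mt-Nd1 is lower in all day 7 libraries than in the controls.

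As a share of the 7 subunits, mt-Nd5 and mt-Nd6 together made up 14.7% ± 2.0 of the counts in Flica-positive CD8 cells, with 14.7%, 12.7% and 16.7% in the 3 libraries. The share was 33.2% ± 0.27 in Flica-negative CD8, 31.9% ± 2.1 in Flica-negative CD4, 28.1% ± 0.78 in CD8 control and 27.8% ± 0.76 in CD4 control cells. Flica-negative libraries, at 30.5% to 34.3%, thus lay above the control libraries, at 27.0% to 28.7%, and Flica-positive libraries below both. In place of mt-Nd5 and mt-Nd6, the share of mt-Nd1 was larger in Flica-positive cells, at 32.4% to 35.1% against 22.6% to 28.8% in the other 12 libraries. The share of mt-Nd4 was 29.2% to 32.1% in Flica-positive and 23.7% to 30.2% in the other libraries, which overlapped. Measured against all 13 mitochondrial protein-coding genes, mt-Nd5 and mt-Nd6 made up 2.36% to 3.51% of counts in Flica-positive libraries, below all others. On this denominator Flica-negative cells did not stand above controls: the share was 7.20% ± 0.43 in Flica-negative and 7.59% ± 0.36 in control CD8 cells, and 7.04% ± 0.74 in Flica-negative and 6.98% ± 0.16 in control CD4 cells, and the libraries overlapped in both lineages.

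**Figure D3:**
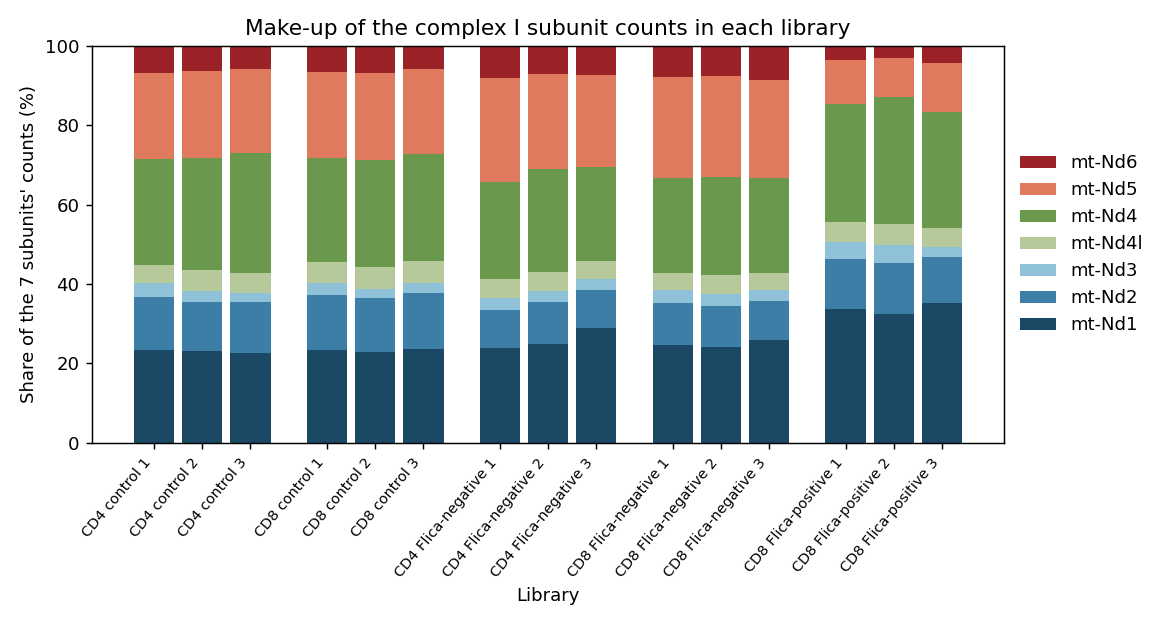
Share of each subunit in the summed raw counts of the 7 subunits (y axis, 0 to 100%) in each of the 15 libraries. The shares of mt-Nd5 and mt-Nd6 at the top of the bars total 12.7% to 16.7% in Flica-positive libraries and 27.0% to 34.3% in the others.

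The question whether CD4 and CD8 cells differ in these transcripts was tested with edgeR's quasi-likelihood test over all 4567 listed genes, on comparisons that had no part in the listing of a gene. Between Flica-negative CD4 and CD8 cells on day 7, 0 of 7 subunits passed an adjusted p of 0.05, where 22.0% of all listed genes did. No subunit reached an unadjusted p of 0.05 either, and DESeq2 also called 0. The log2 fold change of CD4 against CD8 cells was 0.04 ± 0.11 (SE) for mt-Nd1, with a 95% interval from -0.18 to 0.26. For mt-Nd5 it was -0.07 ± 0.11, with an interval from -0.28 to 0.14, and for mt-Nd6 it was -0.11 ± 0.13, with an interval from -0.36 to 0.14. All 7 values lay between -0.11 and 0.04, beside a median of -0.10 over all listed genes, with adjusted p from 0.578 to 0.945, and the widest interval, that of mt-Nd3, reached from -0.38 to 0.22. The libraries of both lineages overlapped for each subunit. Differences within these intervals were not detectable with 3 pools a group.

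Between CD4 and CD8 control cells on day 0, 0 of 7 subunits passed the adjusted threshold in edgeR, against 12.0% of all listed genes, and 1 had an unadjusted p below 0.05. DESeq2 called 0 as well. All 7 values were lower in CD4 cells, with log2 fold changes from -0.29 to -0.09 and a median of -0.20, where the median of all listed genes was 0.02. The largest was that of mt-Nd2 at -0.29 ± 0.14, with an interval from -0.56 to -0.02 and an adjusted p of 0.214 in edgeR, and it is the gene with an unadjusted p below 0.05. For mt-Nd4l the value was -0.28 ± 0.14 with adjusted p = 0.289, for mt-Nd5 -0.20 ± 0.13 with adjusted p = 0.477, and for mt-Nd6 -0.20 ± 0.14 with adjusted p = 0.504. This result depended on 1 library: without CD4 control replicate 3, the highest CD4 control library for 6 of the 7 genes, 4 subunits passed as lower in CD4 cells. These were mt-Nd2 at -0.40 (adjusted p = 0.00456), mt-Nd4l at -0.40 (adjusted p = 0.0178), mt-Nd1 at -0.30 (adjusted p = 0.0320) and mt-Nd5 at -0.30 (adjusted p = 0.0361). With the replicate number as a block, mt-Nd2 alone passed at -0.30 with an adjusted p of 0.0212.

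Flica-positive CD8 cells were compared with Flica-negative CD8 cells, and since this comparison chose the members its values are a description. The paper reports that most Flica-positive T cells took up a dye that enters cells with damaged membranes, unlike Flica-negative ones. Mitochondrial genes, without their nuclear copies, made up 42.8% to 51.7% of listed counts in Flica-positive libraries and 15.3% to 16.2% in Flica-negative CD8 libraries. The listed nuclear copies are part of the listed counts but not of these shares, so counts of mitochondrial sequence made up more than these shares. The part of caspase-1 activity and of membrane damage in the differences was not tested. On the authors' size factors all 7 subunits were past the edgeR threshold as higher, as were 20.6% of all listed genes, a count that the selection of the members fixed and from which nothing is read. The log2 fold change was 3.95 ± 0.22 (SE) for mt-Nd1, 3.79 ± 0.24 for mt-Nd2, 3.94 ± 0.35 for mt-Nd3, 3.68 ± 0.24 for mt-Nd4l and 3.85 ± 0.23 for mt-Nd4. It was 2.32 ± 0.20 for mt-Nd5 and 2.35 ± 0.21 for mt-Nd6. Expressed as folds, mt-Nd1 was 15.5-fold and mt-Nd5 4.98-fold higher. The lowest of the first 5 exceeded the higher of mt-Nd5 and mt-Nd6 by 1.34 on the log2 scale. Over the main fit and 13 alternatives this gap ran from 1.17 to 1.46. A change of scaling could hardly move the gap, and both ends of its range came from leaving out 1 library.

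Against CD8 control cells, a comparison that shares the Flica-positive libraries with the one above, mt-Nd5 and mt-Nd6 again had the lowest values. By edgeR all 7 subunits were past the threshold as higher, as were 46.8% of all listed genes, and since 5 of the 7 were selected on this comparison nothing is read from that count. Log2 fold changes were 3.01 ± 0.20 for mt-Nd1, 2.32 ± 0.23 for mt-Nd2, 3.09 ± 0.40 for mt-Nd3, 2.39 ± 0.23 for mt-Nd4l and 2.66 ± 0.21 for mt-Nd4. For mt-Nd5 and mt-Nd6 they were 1.49 ± 0.19 and 1.64 ± 0.22. Values under 2 go with their having no row for this comparison. The median over all listed genes was 2.04, and it was itself shaped by the genes selected on this comparison. The values of mt-Nd5 and mt-Nd6 depended on the scaling. With TMM factors mt-Nd5 was at -0.13 and mt-Nd6 at 0.01. With totals that leave out mitochondrial genes but keep their nuclear copies they were at -0.16 and -0.02. With totals that leave out these genes and their nuclear copies they were at 0.57 and 0.71. Under these scalings 3, 5 and 6 of the 7 subunits were past the threshold as higher, beside 1232, 1257 and 1687 of 4567 listed genes. Nothing is read from these counts either.

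Other scalings moved all genes together in these comparisons. With TMM factors the median over all listed genes shifted by -0.49 on the log2 scale when Flica-positive cells were set against Flica-negative ones and by -1.65 when they were set against controls. Totals without mitochondrial genes shifted it by -1.24 and -1.63, and totals without these genes and their nuclear copies by -0.39 and -0.94. Of the genes called against Flica-negative cells, 88.7% were higher in Flica-positive cells on the deposited factors and 61.9%, 32.4% and 67.0% under these alternatives. Of those called against control cells it was 66.2%, then 43.4%, 43.2% and 54.0%. A change of scaling moves all genes of a comparison by nearly the same amount, so values relative to the median of all listed genes could hardly differ. They are given only as levels of the subunits beside all listed genes. Over the 4 scalings mt-Nd5 stood 1.84 to 1.93 above that median and mt-Nd6 1.88 to 1.96 in the comparison with Flica-negative cells, and the other 5 subunits 3.19 to 3.57. Against control cells mt-Nd5 stood at -0.57 to -0.51 and mt-Nd6 at -0.43 to -0.38 relative to the median, and the other 5 at 0.24 to 1.13.

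**Figure D4:**
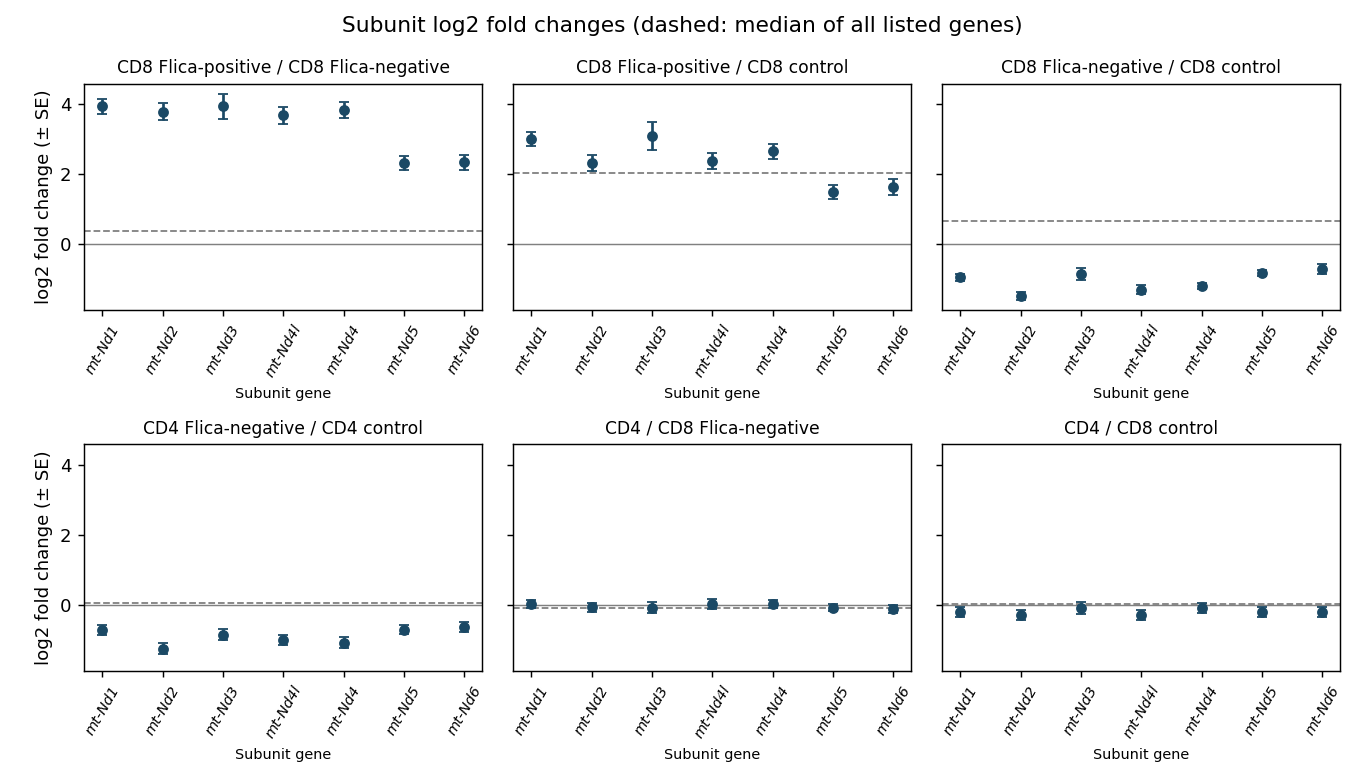
Log2 fold changes of the 7 subunits, with SE bars, in 6 comparisons on the authors' size factors, and the median of all listed genes as a dashed line. Selection of the listed genes on some of these comparisons shaped that median. Values of mt-Nd5 and mt-Nd6 lie below those of the other subunits in both comparisons of Flica-positive CD8 cells, and against CD8 control cells they lie below the dashed line and change sign or fall to near 0 under TMM factors and totals without mitochondrial genes.

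The 6 other mitochondrial protein-coding genes, which encode subunits of complex III, complex IV and the ATP synthase, served as a comparison along the chromosome. In Flica-positive cells set against Flica-negative ones their log2 fold changes were 3.62 to 3.82, beside 3.68 to 3.95 for the first 5 complex I subunits, and all lay above mt-Nd5 and mt-Nd6. Against CD8 control cells they were 2.78 to 3.28. The gene that follows mt-Nd6, mt-Cytb, stood at 3.82 ± 0.23, and mt-Nd4, on the other side of the pair, at 3.85 ± 0.23. Of the other genes without a listed copy, mt-Nd1 was at 3.95 and mt-Nd2 at 3.79. The part of nuclear copies in these values was not tested.

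**Figure D5:**
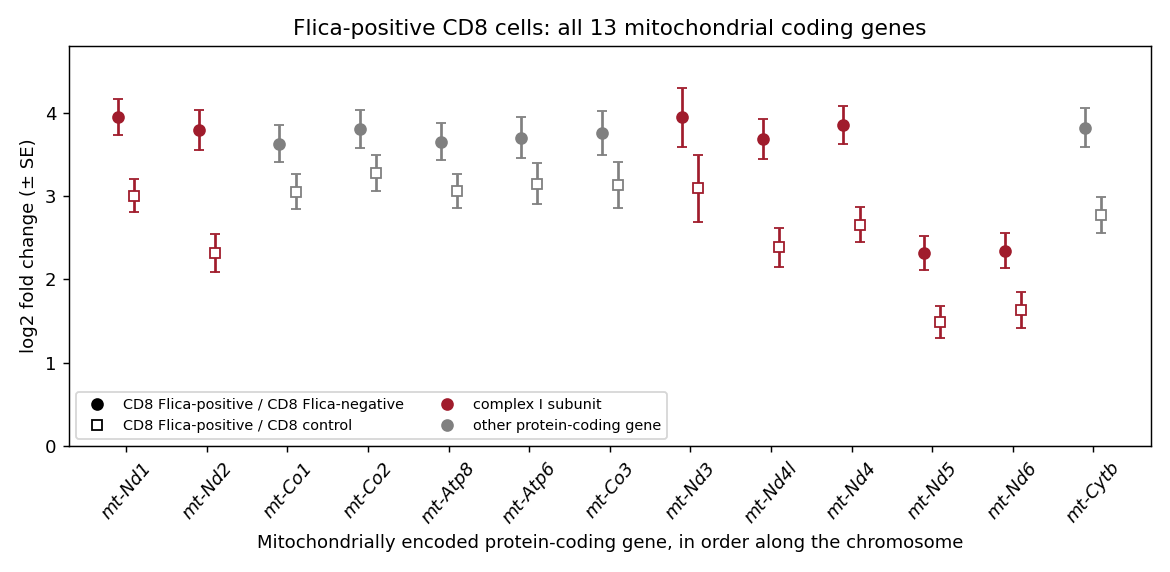
Log2 fold changes (y axis, with SE bars) of the 13 mitochondrial protein-coding genes in their order along the chromosome, for Flica-positive CD8 cells against Flica-negative CD8 cells (filled circles) and against CD8 control cells (open squares), with complex I subunits in red. On the authors' size factors mt-Nd5 and mt-Nd6 are at 2.32 and 2.35 where the other 11 genes are at 3.62 to 3.95; against control cells their direction changes with the scaling.

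Several other measures differed among the populations. All 14 neutrophil markers have a row, and their summed normalized counts were 200517 to 387729 in Flica-positive CD8, 11864 to 18188 in Flica-negative CD8, 2670 to 7795 in Flica-negative CD4 and 60.9 to 144 in control libraries, with Ly6g and Elane at 0 in all 6 of the controls. Of 14 macrophage and monocyte markers 11 have a row, with sums of 18226 to 37611 in Flica-positive CD8, 934 to 2093 in Flica-negative CD8 and at most 756 in the other libraries. For erythroid markers, 6 of 10 have a row and the sums were 1699 to 111918 in Flica-positive, 324 to 3755 in Flica-negative and 2020 to 9222 in control libraries. All 8 B cell markers have a row, with sums of 6178 to 9014 in control, 363 to 645 in Flica-negative and 626 to 864 in Flica-positive libraries. Their part in the levels and in the make-up of the subunit counts was not tested.

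How reads were assigned to strands also bears on mt-Nd6. The strand opposite mt-Nd6 is part of the long precursor that contains mt-Nd5 and mt-Cytb, and whether counting used the strand of the reads is not given in the sources used here, so reads from both strands cannot be told apart. The tables hold 3 tRNA genes of the minus strand, and their levels in control and Flica-negative libraries were far apart. For mt-Tq they were 7.21 to 49.0 normalized counts and for mt-Tp 38.2 to 211, while mt-Ts1, with 69 bases, had 12011 to 28301, and the mt-Ts1 count was 0.0769 to 0.115 of that of its plus-strand neighbour mt-Co1 in all 15 libraries. Since libraries were made from RNA captured by oligo-dT, the levels also depend on the poly(A) tails of the messengers. The part of strand and tails in the proportion of mt-Nd6 to mt-Nd5 was not tested.

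Flica-negative CD8 cells on day 7 were lower than CD8 control cells in all 7 subunits. All 7 were called lower by edgeR, where 29.0% of listed genes were, and the libraries did not overlap. The members were listed through a comparison that used these same Flica-negative libraries, which favours genes low in them. Nothing is therefore read from that count or from the lack of overlap. The log2 fold changes were -1.47 ± 0.11 for mt-Nd2, -1.30 ± 0.13 for mt-Nd4l and -1.19 ± 0.09 for mt-Nd4, the 3 largest falls, and mt-Nd2 was 2.78-fold lower. They were -0.94 ± 0.09 for mt-Nd1, -0.85 ± 0.18 for mt-Nd3, -0.82 ± 0.10 for mt-Nd5 and -0.71 ± 0.13 for mt-Nd6. The median of all listed genes was 0.66, so relative to it the subunits stood between -2.13 and -1.37. Among the other 6 mitochondrial coding genes the values were -1.05 to -0.53.

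Flica-negative CD4 cells were also lower than CD4 control cells in all 7 subunits, in a comparison that shares no library with that of the CD8 cells. All 7 were called lower, where 26.5% of listed genes were, again without overlap. The log2 fold changes were -1.25 ± 0.15 for mt-Nd2, -1.08 ± 0.15 for mt-Nd4 and -0.997 ± 0.16 for mt-Nd4l, and mt-Nd2 was 2.38-fold lower. They were -0.84 ± 0.16 for mt-Nd3, -0.71 ± 0.14 for mt-Nd1, -0.70 ± 0.13 for mt-Nd5 and -0.62 ± 0.14 for mt-Nd6. In both lineages mt-Nd2, mt-Nd4 and mt-Nd4l had the lowest values and mt-Nd6 the least negative one, although the standard errors of mt-Nd3, mt-Nd5 and mt-Nd6 overlapped. The median of all listed genes was 0.06 here, and the other 6 mitochondrial coding genes were at -1.09 to -0.51. The difference between the lineages in these changes was not tested. Neutrophil and B cell markers moved with both comparisons, as given above. Neutrophil markers were called higher for 12 of 14 in CD4 and 13 of 14 in CD8 cells, beside 1422 and 1713 of 4567 listed genes. Of 11 macrophage and monocyte markers 3 were called higher in each lineage. All 8 B cell markers were called lower in both, where 26.5% and 29.0% of listed genes were. Erythroid sums were 380 to 2025 in Flica-negative and 2053 to 9222 in control CD4 libraries, with 4 of 6 markers called lower. In the CD8 libraries they were 324 to 3755 and 2020 to 8153, with 1 of 6 called lower. Listed markers were selected too, so nothing is read from these counts. The part of these markers was not tested.

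Nuclear genes that work with these subunits are nearly absent from the tables. Of 37 nuclear-encoded complex I subunits 1 has a row, Ndufb9, an accessory subunit of the membrane arm. Against CD8 control cells it stood at 2.05 ± 0.38 on the log2 scale in the Flica-positive and at 1.61 ± 0.33 in the Flica-negative CD8 population, where the medians of all listed genes were 2.04 and 0.66. It was called higher in both, as were 2137 and 1713 of 4567 listed genes. Its row exists only because it passed the selection of the tables, so nothing is read from these calls. The other nuclear subunits have no row, so Ndufb9 cannot stand for them. Flica-positive against Flica-negative CD8 cells gave 0.44 ± 0.27 and in Flica-negative CD4 against CD4 control cells 1.12 ± 0.50, without a call. Between CD4 and CD8 cells edgeR gave -0.59 ± 0.26 on day 7 (adjusted p = 0.128) and -0.09 ± 0.44 on day 0 (adjusted p = 1.0). None of 18 complex I assembly factors and none of 36 genes of mitochondrial transcription and RNA processing has a row, so their levels were not measured here.

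The pattern of the members over the 15 libraries was compared with that of other listed genes by the correlation of log2 normalized counts with the mean of the 7 subunits. Pearson's r was 0.998 for mt-Nd4 and mt-Nd4l, 0.995 for mt-Nd5, 0.991 for mt-Nd6 and 0.986 for mt-Nd3. Each subunit is itself part of that mean, so a high r was built in and nothing is read from these values. Outside the 7 subunits, mt-Cytb had r = 0.995. The nuclear copies Gm28439 and Gm10222 both had r = 0.998, but their reads cannot be told apart from those of mt-Nd4 and mt-Nd4l. Among 1511 nuclear genes with a mean of at least 100, those most alike included Oasl2, an interferon-induced gene, with r = 0.936, Cyp4f18, a cytochrome P450, with 0.915, and Cd24a, a surface glycoprotein, with 0.913. Their highest mean was in Flica-positive cells, such as 1316 ± 426 normalized counts for Oasl2 against 93.3 ± 45.5 in Flica-negative CD8 cells. These correlations describe 15 libraries in 5 groups that share their size factors and rest largely on the Flica-positive group.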

How the data were processed

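T cells were sorted by FACS and sequenced as paired-end libraries of oligo-dT captured RNA. The submitters' processing notes name STAR 2.7.1a, DESeq2 and GRCm38, and the counting tool, its annotation and its strand setting are not given in the sources used here. The authors deposited, in each of 4 gene tables, raw read counts for all 15 libraries, the mean expression signal over libraries after division by size factors, a log2 fold change and an adjusted p-value. The deposited log2 fold changes and p-values were read only to check the filter of the tables, and tables of enriched terms were not used.

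The authors' size factors were recovered from counts and deposited means (largest relative error 6.6e-15). Groups of 3 libraries were compared with edgeR 4.0.16 (quasi-likelihood test, 2 groups per fit, Benjamini-Hochberg adjustment over all 4567 genes with a row) under R 4.3.3 and limma 3.58.1. DESeq2 1.42.0 served as an alternative. The edgeR log2 fold change is printed with its standard error, taken as its size over the root of F, and 95% intervals are 1.96 standard errors to each side. Labels call the libraries biological replicates. Gene positions and sequences are those of GENCODE M21, and copies were searched with blastn 2.17.0 (at least 85% identity over 100 bases). Correlations used log2(normalized count + 1). Joins and plots used matplotlib 3.10.9, numpy 2.4.6 and pandas 2.3.3 under Python 3.11.15. The test was checked on simulated data.

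Named genes are the 7 subunits, the other mitochondrially encoded genes, listed genes of the fixed lists and the 5 nuclear genes most like the subunits, of which 3 are reported here. The members and lists were chosen with earlier results of these data known. Alternatives were TMM factors, totals without mitochondrial genes, DESeq2, a mean of at least 10, leaving out each library, the replicate number as a block and 1 fit of all 15 libraries, and, chosen after seeing the data, totals without mitochondrial genes and their nuclear copies.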

Additional observations from a re-analysis of the deposited data

How the results depend on the processing

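Depth and genes outside the tables are unknown, p-values of CD4 against CD8 cells are adjusted over genes selected by the authors on the same libraries, and the spread between pools and the choice of size factors bear on each value. Of 546 refitted subunit fold changes (7 genes, 6 comparisons, 13 alternatives), 519 kept their direction and their side of the threshold, 4 lost and 5 gained a call, and 18 changed direction. Comparing Flica-positive with Flica-negative CD8 cells, and Flica-negative with control cells of both lineages, each of the 13 alternatives called all 7 subunits in the same direction. In the CD8 comparisons the selection of the members bears on this count, and nothing is read from it.

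Between Flica-positive and control CD8 cells TMM factors called 3 of 7 subunits as higher, beside 1232 of 4567 listed genes. With TMM factors mt-Nd5 was at -0.13, and totals without mitochondrial genes gave -0.16 for mt-Nd5 and -0.016 for mt-Nd6. Between Flica-negative CD4 and CD8 cells the values near 0 changed sign: mt-Nd2, mt-Nd3 and mt-Nd5 were 0.012, 0.0041 and 0.0097 with TMM factors, 0.0098, 0.00081 and 0.0057 with totals without mitochondrial genes, and 0.010, 0.00078 and 0.0057 when the nuclear copies were left out too. Leaving out 1 library gave -0.037 to 0.12 for mt-Nd1, -0.065 to 0.067 for mt-Nd4 and -0.034 to 0.056 for mt-Nd4l there, and -0.20 to 0.12 for mt-Nd3 between CD4 and CD8 control cells, where it called between 0 and 4 subunits. The number of listed genes called between Flica-negative CD4 and CD8 cells was 1004 and 640 in 1 fit of all 15 libraries. With Flica-positive cells set against Flica-negative ones it was 1060, 1666 with totals without mitochondrial genes, and 703 to 1017 when 1 library was left out, the lowest without Flica-negative replicate 2. As a share of the 13 coding genes in place of the 7 subunits, mt-Nd5 and mt-Nd6 made up 7.04% in Flica-negative CD4, 6.98% in CD4 control, 7.20% in Flica-negative CD8, 2.92% in Flica-positive CD8 and 7.59% in CD8 control cells, the larger denominator by construction. The cause of the other changes was not tested.

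The replicate block called 1 subunit (mt-Nd2) between CD4 and CD8 control cells in place of 0, and 2106 listed genes in place of 3230 between Flica-positive and control CD8 cells, and changed no other count of subunits. Libraries of the same number were treated as sharing only that number, since not every pair of a comparison was correlated: over 3821 genes whose mean was 10 or more, their deviations from the group means correlated at 0.128, 0.039 and 0.077 for the CD8 populations of day 7, 0.096, 0.028 and 0.113 for Flica-negative CD4 and CD8 cells and 0.096, 0.027 and 0.060 for control cells, and between -0.069 and 0.004 in the other comparisons. Over 1673 genes whose mean was 100 or more, the values were 0.240, 0.0722 and 0.176 for the CD8 populations of day 7, 0.266, 0.0034 and 0.341 for Flica-negative CD4 and CD8 cells and 0.125, 0.018 and 0.078 for control cells. As a hint from the data, over the larger set all 6 libraries correlated best with their own number in both comparisons of CD4 with CD8 cells, and 5 of 6 for the CD8 populations of day 7, and over the smaller set 4, 5 and 6 of 6 for Flica-negative cells, control cells and the CD8 populations of day 7. The paper describes splitting stained splenocytes into several populations by sorting, so libraries of the same day can share a pool. Tests without the block do not allow for this.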
